A study of Mus musculus with 9 samples.

Results

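The genes described here are the 8 mouse genes for the pore-forming alpha1 subunits of voltage-gated calcium channels that neurons commonly use: Cacna1a, Cacna1b, Cacna1c, Cacna1d, Cacna1e, Cacna1g, Cacna1h and Cacna1i. They were chosen by name, and all 8 are among the 21536 genes of the deposited table. Their levels were followed in neurons of the trigeminal ganglion, the sensory ganglion of the face and mouth. Cells came from wild type FVB/N mice, aged 3 to 6 weeks by the labels. Ganglia of many mice of both sexes were pooled for each of 9 runs, and neurons were enriched on a Percoll gradient and by removing glia and other cells before droplet capture (Drop-seq). The runs share 1 table whose cell barcodes do not name a run, so all cells count as 1 sample, no test between groups of cells was possible, and differences between runs could not be checked.

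A voltage-gated calcium channel opens when the membrane is depolarised and lets calcium into the cell. Its alpha1 subunit forms the pore and senses the voltage, and fixes the type of current. The Cav2 genes Cacna1a, Cacna1b and Cacna1e give the P/Q-type, N-type and R-type currents, which drive transmitter release at nerve endings. The Cav1 genes Cacna1c and Cacna1d give L-type currents, which couple activity to gene expression and firing. The Cav3 genes Cacna1g, Cacna1h and Cacna1i give T-type currents, which open near the resting potential and shape excitability. N-type channels in sensory endings are the target of the pain drug ziconotide, and T-type channels of sensory neurons are known for their part in touch and pain.

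The division between Cav3 and the other subfamilies can be read in the pore itself. The lines below give the coding sequence around the codon of the third pore loop that lines the selectivity filter, with that codon in capitals. They were read 5′ to 3′ from the coding exons of GENCODE M21 transcripts on GRCm38 and are shown because this codon differs between the subfamilies whose levels are compared below.
Cacna1a: gtgtccacaggaGAGggctggccacag
Cacna1b: gtgtccacgggaGAGgggtggcccatg
Cacna1e: gtctctacagggGAAggatggcctcag
Cacna1c: gtctccaccttcGAAgggtggccagag
Cacna1d: gtctcaacttttGAGggctggcccgcg
Cacna1g: ctggcctccaagGATggctgggttgac
Cacna1h: ctgtcatccaagGATggctgggtaaac
Cacna1i: ttggcctccaagGATggctgggtgaac

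The capitals encode glutamate in the 3 Cav2 and 2 Cav1 genes and aspartate in the 3 Cav3 genes. The stretch lies in 1 exon in each Cav3 gene, at chr11:94426459-94426485 (Cacna1g, minus strand), chr17:25383496-25383522 (Cacna1h, minus strand) and chr15:80376795-80376821 (Cacna1i, plus strand). In the other 5 genes it is split by an intron, so its ends lie further apart: chr8:84581326-84583559 (Cacna1a, plus strand), chr2:24650628-24651106 (Cacna1b, minus strand), chr1:154444002-154444897 (Cacna1e, minus strand), chr6:118654455-118656138 (Cacna1c, minus strand) and chr14:30099243-30100722 (Cacna1d, minus strand). The libraries count transcripts near their poly(A) end, so the counts do not tell splice forms of these exons apart.

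The table holds 30491529 unique transcript counts (UMIs, each 1 captured molecule) in 6997 barcodes with at least 1000 UMIs each. Barcodes with 500 to 7500 genes, a UMI of at least 3 of Tubb3, Scn9a, Snap25, Nefl, Nefm and Uchl1, and none of Epcam were taken as neurons, and 3855 met this rule (median 3014 UMIs). Each of the 6 marker genes had a UMI in 76.5% to 97.0% of them, which the rule itself favours. Neurons were then put in 1 of 7 groups by the first rule they met: at least 2 UMIs of the cold receptor gene Trpm8 (244 neurons), at least 2 of Mrgprd, a marker of non-peptidergic nociceptors (379), a UMI of Mrgpra3 (49) or at least 2 of Nppb (57), both markers of itch neurons, a UMI of Cd34 (320), at least 5 of Nefh, a neurofilament of large myelinated neurons, with none of Trpv1 (450), or at least 5 of Calca, the gene for the peptide CGRP, with a UMI of the heat receptor gene Trpv1 (916). The other 1440 neurons, which were shallower (median 1827 UMIs against 3406 to 5836 in the groups), were left ungrouped, and 349 neurons met several rules.

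Markers of other cells were present in the neurons. The summed level of 5 red blood cell genes ran from 3151 UMIs per 1000000 UMIs in the Mrgprd group to 14183 in ungrouped neurons, and that of 8 glial genes from 243 in the Trpm8 group to 9058 in ungrouped neurons. Of the neurons, 179 also met the marker rule of another cell type, 152 of them ungrouped. Levels below are UMIs of a gene per 1000000 UMIs of all cells of a population (CPM), with exact Poisson 95% intervals in parentheses. Shares of cells carry exact binomial intervals. All intervals cover counting error only. Each UMI is 1 transcript end, so levels of different genes are compared without dividing by length. Whether the ends of different genes were captured and counted equally well was not tested.

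The alpha1 genes gave 5126 UMIs in the neurons, 245 CPM (238 to 252), and 55.4% of neurons had a UMI of at least 1 of them. Barcodes outside the neurons were called like another cell type where at least 3 of its markers had a UMI and were enriched together. The share was 4.84% in 310 glia-like and 2.99% in 501 red blood cell-like barcodes, whose median UMIs were 1653 and 1381. After each cell was thinned to 1000 UMIs, the shares were 22.9% (21.6 to 24.3%) in neurons, 3.87% (2.02 to 6.66%) in glia-like and 1.40% (0.56 to 2.86%) in red blood cell-like barcodes. The share in neurons was thus above that in glia-like and red blood cell-like barcodes. It was also above that in 130 anterior pituitary-like barcodes, at 35.4% and, after thinning, 11.5% (6.60 to 18.3%). In 148 olfactory neuron-like barcodes the share was 39.9%, below that in neurons, but 31.8% (24.4 to 39.9%) after thinning, above it. The share rose with depth: 31.4% of the 964 neurons with the fewest UMIs had a UMI of a member, against 86.5% of the 964 with the most.

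Cacna1b, the N-type gene, made up most of the family. Its level over all neurons was 159 CPM (153 to 164), and 43.9% of neurons had a UMI of it. The P/Q-type gene Cacna1a followed at 37.0 CPM (34.4 to 39.7) and the T-type gene Cacna1h at 23.4 CPM (21.4 to 25.6). The order then ran through Cacna1c at 9.56 CPM (8.28 to 11.0), Cacna1d at 7.41 (6.29 to 8.67), Cacna1e at 5.11 (4.19 to 6.18) and Cacna1i at 3.73 (2.95 to 4.65). Over all neurons the intervals of the neighbours Cacna1c and Cacna1d, and of Cacna1e and Cacna1i, overlapped. All other neighbours in this order were separated by more than counting error. Levels and part of the order also varied with depth. In the 964 neurons with the fewest UMIs, Cacna1d stood at 11.6 CPM and Cacna1c and Cacna1e at 10.8 each. In the 964 with the most, Cacna1d, Cacna1c and Cacna1e stood at 6.61, 8.57 and 4.36 CPM. Between these sets Cacna1b fell from 198 to 147 CPM and Cacna1a from 50.3 to 34.1. As a mean of each neuron's own CPM, 3 of the 8 levels stayed within their intervals. Cacna1g, the third T-type gene, was almost not seen, with 3 UMIs in 3 neurons. Cacna1s and Cacna1f, the alpha1 genes known from skeletal muscle and retina, had 5 and 2 UMIs.

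By subfamily, the Cav2 genes took 81.9% (80.9 to 83.0%) of the family's UMIs, Cav1 6.93% (6.25 to 7.66%) and Cav3 11.1% (10.3 to 12.0%). The total level of the family ran from 193 CPM (175 to 213) in the Trpm8 group to 286 (271 to 301) in the Calca group. This difference was beyond counting error but short of 2-fold. Its make-up moved more. Cav3 genes gave 28.8% (25.5 to 32.4%) of the family's UMIs in the Cd34 group, 15.6% (13.1 to 18.4%) in the Nefh group and 13.9% (10.7 to 17.6%) in the Trpm8 group. They gave 4.03% (3.06 to 5.20%) in the Calca group and 0.726% (0.267 to 1.57%) in the Mrgprd group, where 6 of 827 UMIs came from them. The Mrgpra3 and Nppb groups had 6 and 1 Cav3 UMIs. The T-type share was thus highest in the Cd34 and lowest in the Mrgprd group, and the intervals of these 2 groups did not overlap.

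**Figure D1:**
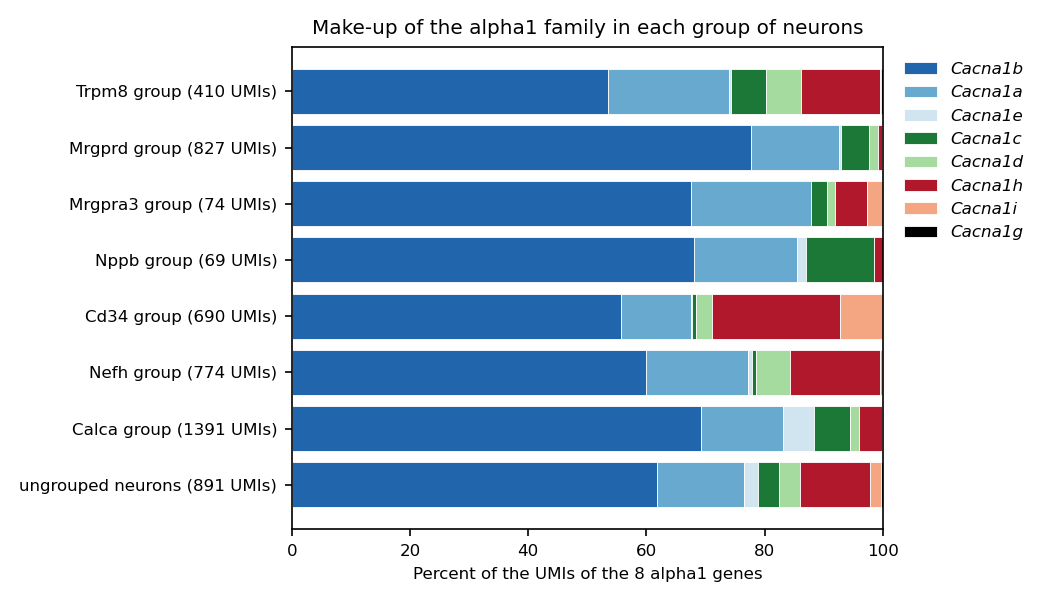
Bars give the percent of the UMIs of the 8 alpha1 genes that came from each gene, by group of neurons, with the family's UMIs in parentheses. Cacna1b was the largest part in every group, from 53.4% to 77.6%, and the red segment of Cacna1h ran from 0.605% in the Mrgprd group to 21.6% in the Cd34 group.

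A level at least 2-fold above or below that in all other neurons was counted in place of a test. Of 56 pairs of a gene and a group, 46 had enough UMIs for a ratio, and 6 were higher and 15 lower. For the 4 members with at least 200 UMIs in neurons, 3 of 28 pairs were higher and 5 were lower. Among all 9297 genes with as many UMIs, 2.7% were higher in the Trpm8 group, 4.98% in the Mrgprd, 4.41% in the Mrgpra3, 3.99% in the Nppb, 3.19% in the Cd34, 3.62% in the Nefh and 3.74% in the Calca group, and 11.8%, 12.1%, 13.3%, 13.1%, 7.96%, 7.17% and 6.27% were lower in the same order. For the 3 members with at least 50 but fewer than 200 UMIs, 3 of 21 pairs were higher and 10 lower. Of the 2796 genes of that range, which are called the sparse genes below, 6.76%, 6.19%, 12.2%, 13.8%, 7.69%, 11.7% and 10.9% were higher in the same order of groups, and 31.8%, 39.4%, 7.76%, 6.04%, 29.5%, 19.1% and 20.0% were lower. Low values were thus common among sparse genes of any kind. Cacna1i had 28 UMIs outside the Cd34 group and Cacna1e 33 outside the Calca group, so both are in the sparse range only through the group where they are high, and nothing is read from their counts against these shares. The same holds for Cacna1c, which has exactly 200 UMIs, 115 of them outside the Calca group, and gave 2 of the 3 higher and 2 of the 5 lower pairs of the other range. The rest of those pairs were Cacna1h's. As a description, the median log2 ratio of the 4 members with at least 200 UMIs ran from -0.48 in the Cd34 group to 0.28 in the Calca group, and that of all genes with as many from -0.10 to -0.01. The value of the Calca group includes Cacna1c (log2 1.28), which is in this range only through that group. Cacna1a, Cacna1b and Cacna1h stood there at 0.12, 0.43 and -1.29.

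**Figure D2:**
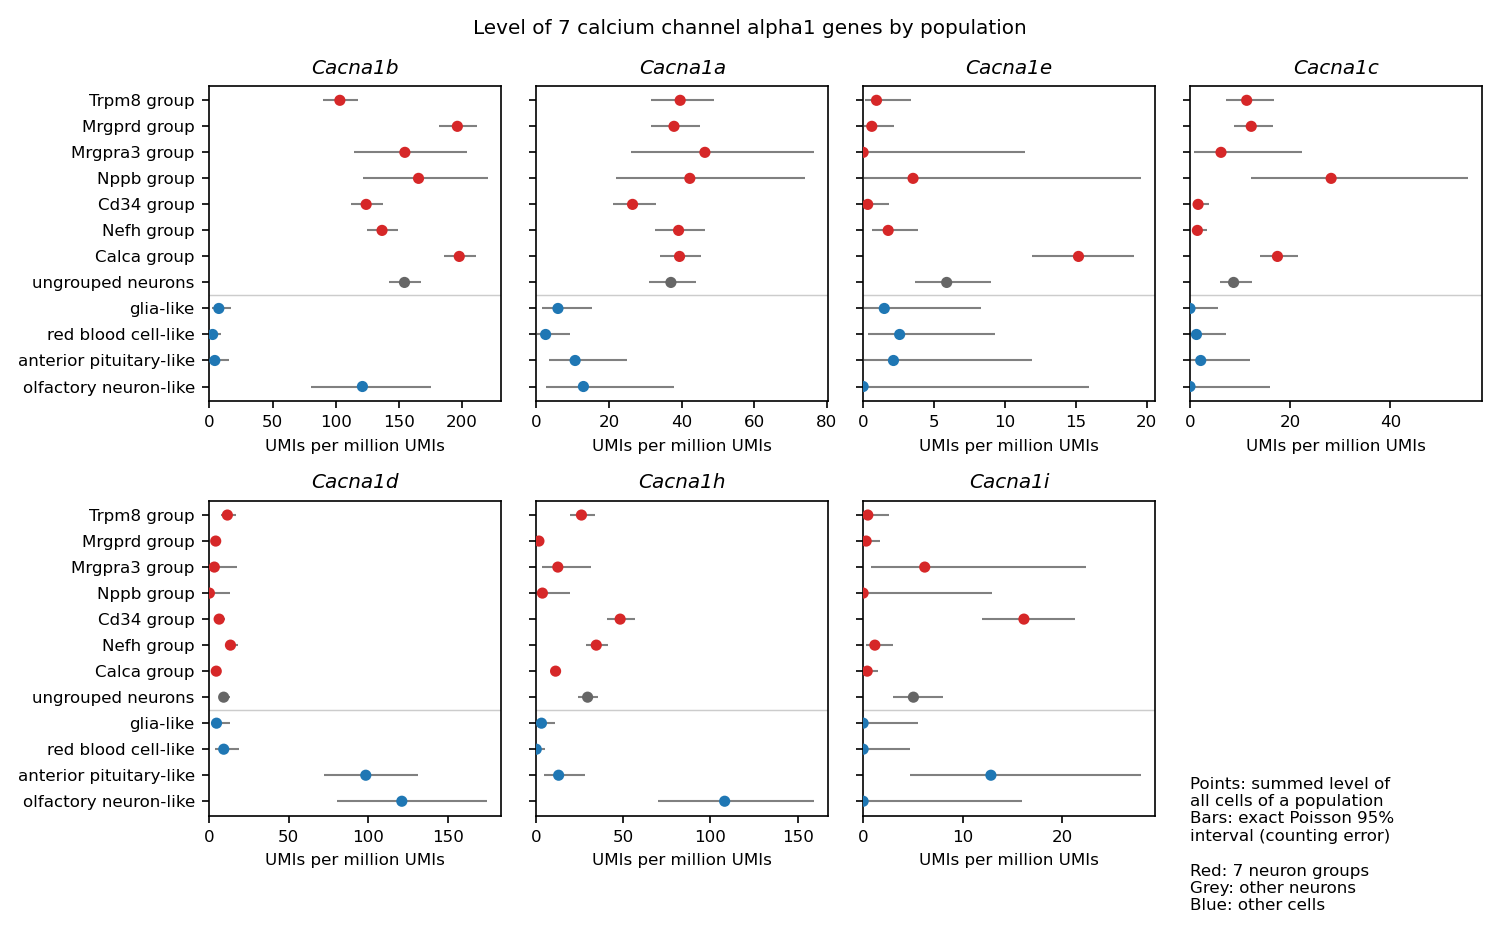
Each panel gives 1 gene, with its level in CPM on the x axis and populations on the y axis. Points are summed levels and bars exact Poisson 95% intervals. Among the groups of neurons, Cacna1a was nearly flat, Cacna1e was highest in the Calca group at 15.2 and Cacna1i in the Cd34 group at 16.2. Cacna1d stood at 121 in the olfactory neuron-like barcodes.

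Among the Cav2 genes, Cacna1b was present in every group and no group reached a 2-fold difference from the others. Its level was 198 CPM (185 to 211) in the Calca group, 196 (181 to 212) in the Mrgprd group, 166 (122 to 220) in the Nppb group and 155 (115 to 204) in the Mrgpra3 group. It was 154 (142 to 168) in ungrouped neurons, 137 (124 to 150) in the Nefh group, 124 (112 to 137) in the Cd34 group and 103 (90.0 to 118) in the Trpm8 group. Each interval overlapped that of the next group in this order, while those of the Calca and Mrgprd groups lay above those of the Nefh, Cd34 and Trpm8 groups. The place of the Trpm8 group rests on neurons that met several group rules: without them its log2 ratio to all other neurons went from -0.68 to -0.20, while those of the Cd34 and Nefh groups were -0.47 and -0.34. The paper describes a Trpm8 cluster with higher Nefh, so the neurons left out may be a true part of the Trpm8 group. The direct ratio of the Mrgprd to the Trpm8 group was 1.90-fold (log2 0.93, 0.70 to 1.15), short of 2-fold, which 13.8% of genes reached.

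Cacna1a, whose channel carries much of the release at central synapses, varied least. Its level ran from 46.4 CPM (26.0 to 76.5) in the Mrgpra3 group to 26.5 (21.1 to 32.9) in the Cd34 group. The Nppb, Trpm8, Calca, Nefh and Mrgprd groups and the ungrouped neurons all lay between 37.1 and 42.3 CPM. No group reached the 2-fold limit, and the Cd34 group was lowest at 1.47-fold below all other neurons (log2 -0.55, -0.90 to -0.22).

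Cacna1e, the R-type gene, was seen mainly in the Calca group, which held 74 of its 107 UMIs. The level there was 15.2 CPM (11.9 to 19.1) against 2.06 (1.41 to 2.89) in all other neurons, 7.39-fold higher (log2 2.89, 2.28 to 3.52). Ungrouped neurons followed at 5.89 CPM (3.65 to 9.01), which did not overlap the Calca group. The Nppb group had 1 UMI (3.52 CPM, 0.0892 to 19.6), the Nefh group 6 (1.77 CPM, 0.648 to 3.85), the Trpm8 group 2 (0.943 CPM), the Mrgprd group 2 (0.611 CPM), the Cd34 group 1 (0.323 CPM) and the Mrgpra3 group none, which allows up to 9.28 CPM at 3 counts. The Nefh, Trpm8, Mrgprd and Cd34 levels met the 2-fold limit for lower, with log2 ratios of -1.71 (-3.19 to -0.53), -2.57 (-5.63 to -0.68), -3.28 (-6.35 to -1.39) and -4.20 (-9.52 to -1.69), and rest on 6 UMIs or fewer each, in comparisons where 19.1%, 31.8%, 39.4% and 29.5% of the sparse genes were lower. At 1000 UMIs per neuron the Nefh group was no longer past the limit (log2 -0.84). The Mrgprd group had no UMI left at that depth. Its value of -0.08 is a bound from 3 counts and does not show that the low level was lost. In red blood cell-like barcodes the level was 2.58 CPM (0.312 to 9.31), so only the Calca group stood above that background.

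Of the Cav1 genes, Cacna1c was highest in the Nppb group at 28.2 CPM (12.2 to 55.5), from 8 UMIs in 7 neurons, and in the Calca group at 17.5 CPM (13.9 to 21.6), from 85 UMIs. The ratios to all other neurons were 3.03-fold (log2 1.60, 0.37 to 2.61) and 2.44-fold (log2 1.28, 0.86 to 1.70). The call of the Nppb group is lost where 10 UMIs, observed or expected, are required. The Mrgprd group stood at 12.2 CPM (8.73 to 16.6), the Trpm8 group at 11.3 (7.25 to 16.8), ungrouped neurons at 8.70 (5.91 to 12.4) and the Mrgpra3 group at 6.19 (0.749 to 22.4).

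Both groups of neurons that follow were low in this L-type gene. The Cd34 group had 1.62 CPM (0.525 to 3.77) and the Nefh group 1.47 CPM (0.478 to 3.44), from 5 UMIs each. They were 6.77-fold (log2 -2.76, -4.40 to -1.51) and 7.56-fold (log2 -2.92, -4.56 to -1.67) below all other neurons. Their intervals did not overlap those of the Nppb, Calca, Mrgprd and Trpm8 groups. On the genome, Cacna1c (chr6:118587240-119196418, minus strand) overlaps the gene Dcp1b on the other strand, and whether the counting used strand is not given in the sources used here. Dcp1b had 21.1 CPM in the Nppb and 18.7 in the Calca group, against 6.46 in the Cd34 and 7.66 in the Nefh group. Its part in the Cacna1c counts was not tested.

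Cacna1d, the other L-type gene, was highest in the Nefh group at 13.2 CPM (9.66 to 17.7), 2.11-fold above all other neurons (log2 1.08, 0.54 to 1.59). Of the sparse genes, 11.7% were higher in that group. The Trpm8 group had 11.3 CPM (7.25 to 16.8), ungrouped neurons 8.98 (6.14 to 12.7), the Cd34 group 6.14 (3.70 to 9.59), the Calca group 4.31 (2.67 to 6.59) and the Mrgprd group 3.97 (2.12 to 6.79). The Mrgpra3 group had 1 UMI and the Nppb group none. The interval of the Nefh group lay above those of the Calca and Mrgprd groups. In other cells, red blood cell-like barcodes held 9.02 CPM (3.63 to 18.6) and glia-like ones 4.48 CPM (0.924 to 13.1), intervals that overlap that of every group of neurons with a UMI, and vascular endothelial-like barcodes had none, which allows up to 18.4 CPM at 3 counts. At 1000 UMIs per cell, a UMI was found in 1.06% (0.764 to 1.44%) of neurons, 2.67% (1.39 to 4.61%) of the Nefh group, 0.599% (0.124 to 1.74%) of red blood cell-like and 0.323% (0.00817 to 1.78%) of glia-like barcodes. A level of Cacna1d above that of red blood cell-like and glia-like barcodes was not detectable at this depth. The lower values of the Mrgprd and Mrgpra3 groups, past the 2-fold limit from 13 UMIs (log2 -1.02, -1.96 to -0.20) and 1 UMI (log2 -1.27, -6.59 to 1.23), changed sign when neurons were thinned to 1000 UMIs. Thinning was random with a fixed seed. It left 6 neurons of the Mrgprd and 1 of the Mrgpra3 group with a UMI, too few to settle the sign. The genes Chdh and Dcp1a overlap Cacna1d (chr14:30039939-30491455, minus strand) on the other strand, and had 8 and 74 UMIs in neurons.

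In several other cell classes Cacna1d was the leading member or shared that place. In 130 anterior pituitary-like barcodes, named by their hormone genes, it stood at 98.4 CPM (72.1 to 131) and gave 46 of the 67 UMIs of the family. In 148 olfactory neuron-like barcodes it had 121 CPM (80.5 to 175), as did Cacna1b, and Cacna1h had 108 CPM (70.0 to 160), with 1 UMI in each of 25 barcodes. In 79 epithelial-like barcodes it had 46.9 CPM (23.4 to 83.9). Cacna1b, by contrast, had 4.28 CPM (0.518 to 15.5) in the pituitary-like barcodes and 7.46 (2.42 to 17.4) in the glia-like ones.

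The T-type gene Cacna1h differed most between groups among the members with at least 200 UMIs. It was highest in the Cd34 group at 48.1 CPM (40.7 to 56.5), from 149 UMIs in 100 of 320 neurons. The Nefh group had 34.4 CPM (28.5 to 41.3), ungrouped neurons 29.5 (24.1 to 35.7) and the Trpm8 group 25.9 (19.5 to 33.8). The Mrgpra3 group had 12.4 CPM (3.37 to 31.7) and the Calca group 11.1 (8.33 to 14.5). The Nppb group had 1 UMI (3.52 CPM, 0.0892 to 19.6) and the Mrgprd group 5 UMIs in 379 neurons (1.53 CPM, 0.496 to 3.57).

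Each neighbour in this order overlapped the next, but its ends were far apart. The Cd34 group was 2.52-fold above all other neurons (log2 1.33, 1.04 to 1.61), where 3.19% of genes with at least 200 UMIs were higher. The Mrgprd group was 18.0-fold below them (log2 -4.17, -5.80 to -2.94), where 12.1% were lower, and the Calca group 2.45-fold below (log2 -1.29, -1.73 to -0.88), where 6.27% were lower. At 1000 UMIs per neuron the Calca group was no longer past 2-fold (log2 -0.92). The Nppb group also met the limit for lower at 6.73-fold, from its 1 UMI (log2 -2.75, -8.06 to -0.27). Without neurons that met several group rules its log2 value was -0.72. That value rests on 1 UMI at most, or on 3 counts set in place of none, so it does not decide the call. Set directly against each other, the Cd34 group exceeded the Mrgprd group 31.5-fold (log2 4.98, 3.72 to 6.62), a contrast in which 10.3% of genes were at least 2-fold higher. These 2 groups had like depths, with median UMIs of 5836 and 5371. None of the 501 red blood cell-like barcodes had a UMI of Cacna1h, which allows a share of up to 0.599%. Glia-like barcodes had 2 UMIs (2.99 CPM, 0.362 to 10.8), an interval that overlaps those of the Mrgpra3, Calca, Nppb and Mrgprd groups and lies below those of the Cd34, Nefh and Trpm8 groups. Tpsg1, which overlaps the 3′ end of Cacna1h (chr17:25374285-25433783, minus strand) on the other strand, had 4 UMIs in all neurons.

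Cacna1i, the other T-type gene seen in these neurons, had 50 of its 78 UMIs in the Cd34 group. Its level there was 16.2 CPM (12.0 to 21.3) against 1.57 (1.04 to 2.27) in all other neurons, 10.3-fold higher (log2 3.36, 2.67 to 4.08). Of the Cd34 group, 46 neurons (14.4%, 10.7 to 18.7%) had a UMI of it, and no neuron of the group had more than 2. Ungrouped neurons had 5.05 CPM (2.99 to 7.99) and the Mrgpra3 group 6.19 CPM (0.749 to 22.4) from 2 UMIs. The Nefh group had 4 UMIs (1.18 CPM), the Calca group 2 (0.411 CPM), the Trpm8 and Mrgprd groups 1 each and the Nppb group none. The Nefh, Calca, Trpm8 and Mrgprd levels met the 2-fold limit for lower, with log2 ratios of -1.84 (-3.76 to -0.42), -3.53 (-6.60 to -1.62), -3.12 (-8.44 to -0.60) and -3.84 (-9.16 to -1.31), in comparisons where 19.1%, 20.0%, 31.8% and 39.4% of the sparse genes were lower. The Nefh group was no longer past the limit at 1000 UMIs per neuron (log2 -0.89). Without neurons that met several group rules the Trpm8 group had a log2 value of -0.94. That value rests on 1 UMI at most, or on 3 counts set in place of none, so it does not decide the call. The level of the Nefh group was 13.7-fold below that of the Cd34 group (log2 of Cd34 over Nefh 3.78, 2.33 to 5.71), in a contrast where 13.0% of the sparse genes were higher in the Cd34 group. Cacna1h differed 1.40-fold between them (log2 0.48, 0.12 to 0.84), and 5.71% of genes with at least 200 UMIs reached 2-fold. Of the T-type genes, only Cacna1i was past 2-fold between the Cd34 and Nefh groups, while both were between the Cd34 and Mrgprd groups.

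The Nefh group was then divided by Ntrk2, the gene for the receptor TrkB of some touch neurons. In 91 neurons with at least 2 UMIs of Ntrk2, Cacna1h stood at 71.8 CPM (56.4 to 90.2), and in 317 with none at 18.0 CPM (12.7 to 24.8). The ratio was 3.99-fold (log2 2.0, 1.41 to 2.61), in a contrast where 1.9% of genes with at least 200 UMIs were at least 2-fold higher and 5.59% lower, and 9.87% and 16.2% of the sparse genes. A UMI of Cacna1h was found in 35.2% (25.4 to 45.9%) of the first and 7.89% (5.17 to 11.4%) of the second neurons. The first were deeper, with a median of 7083 UMIs against 3613, and at 1000 UMIs per neuron the shares were 7.69% (3.15 to 15.2%) and 1.26% (0.345 to 3.20%). Cacna1b went the other way without reaching 2-fold, at 106 CPM (86.9 to 128) with Ntrk2 and 149 (132 to 166) without. No other member with a ratio reached 2-fold here.

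Divided by Calca, 89 neurons of the Nefh group had at least 5 UMIs of it and 361 fewer. Cacna1e had 5 UMIs in the first and 1 in the second (5.41 against 0.404 CPM, log2 3.74, 0.58 to 9.31), from 6 UMIs in all. Cacna1d had 7.58 CPM (3.05 to 15.6) and 15.4 CPM (10.9 to 21.1), a log2 ratio of -1.02 whose interval, -2.43 to 0.16, includes no difference. In this contrast 4.81% of genes with at least 200 UMIs were higher and 5.78% lower, and 12.7% and 19.6% of the sparse genes. Cacna1h was 21.7 CPM (13.2 to 33.4) in the first and 39.2 (31.8 to 47.9) in the second.

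The Trpm8 group was divided by Trpv1. Cacna1b stood at 171 CPM (141 to 207) in 60 neurons with a UMI of Trpv1 and at 74.5 CPM (61.3 to 89.7) in 184 without, 2.30-fold (log2 1.20, 0.81 to 1.60), in a contrast where 6.04% of genes with at least 200 UMIs were higher and 3.27% lower, and 9.98% and 11.0% of the sparse genes. Without the neurons that met several group rules the log2 ratio was 0.73, under the 2-fold limit. Cacna1h did not differ beyond counting error between them, at 25.4 CPM (14.5 to 41.2) and 26.2 CPM (18.6 to 35.8), with an interval of the log2 ratio from -0.98 to 0.83.

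Over all neurons, 890 had a UMI of the heat receptor gene Trpv1 and none of the touch channel gene Piezo2, and 1508 the reverse. Cacna1e was 8.80-fold higher in the Trpv1 neurons (log2 3.14, 2.19 to 4.19), with 45 against 12 UMIs, and Cacna1c 3.40-fold higher (log2 1.77, 1.23 to 2.31), with 17.5 against 5.14 CPM. Cacna1h was 2.94-fold lower (log2 -1.56, -2.02 to -1.12), with 11.4 against 33.4 CPM, and Cacna1i had 1 UMI against 70 (log2 -4.90, -10.2 to -2.37). Thus the R-type gene and the L-type gene Cacna1c were higher on the Trpv1 side, and both T-type genes on the Piezo2 side. In this contrast 4.93% of genes with at least 200 UMIs were higher and 6.86% lower, and 16.0% and 18.9% of the sparse genes. Cacna1b (192 against 154 CPM) and Cacna1a (40.2 against 36.0 CPM) stayed within 2-fold. Many of these neurons are also members of the groups above, so the contrast is not independent of theirs.

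**Figure D3:**
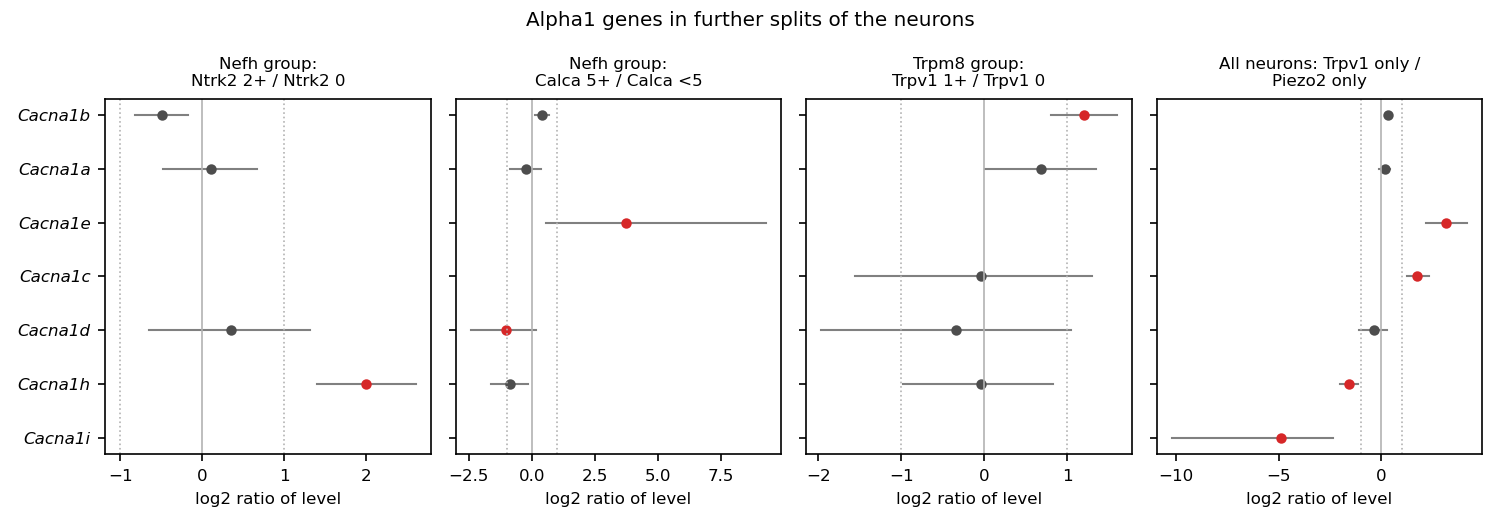
Points give the log2 ratio of level for each gene in 4 further splits, with exact 95% intervals for counting error. Solid lines mark no difference and dotted lines 2-fold, and red points lie past 2-fold. Cacna1h was 2.0 higher with Ntrk2 in the Nefh group, and Cacna1e 3.14 higher and Cacna1h 1.56 lower in Trpv1 neurons without Piezo2, on the log2 scale.

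The spread over the neurons of a group is given for Cacna1h, Cacna1b and Cacna1a only. At low levels the share with a UMI comes close to the expected one for most ways the level could vary. In the Cd34 group 31.3% of neurons had a UMI of Cacna1h, and 31.9% would have had one if every neuron carried the group's mean level at its own depth. In the Nefh group the same shares were 14.0% and 19.8%. The most UMIs of Cacna1h in 1 neuron were 8 in the Cd34 group and 9 in the Nefh group. After the division by Ntrk2 they were 35.2% and 44.1% with Ntrk2, and 7.89% and 10.2% without. Cacna1b was close to the expected share in the Mrgprd group, with 65.7% against 65.6%, and a little under it in the Calca group, with 51.4% against 54.0%. Cacna1a was close to it in the Nefh group, with 21.6% against 21.8%. In the 49 neurons of the Mrgpra3 group Cacna1a was under it, with 16.3% against 23.9%.

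**Figure D4:**
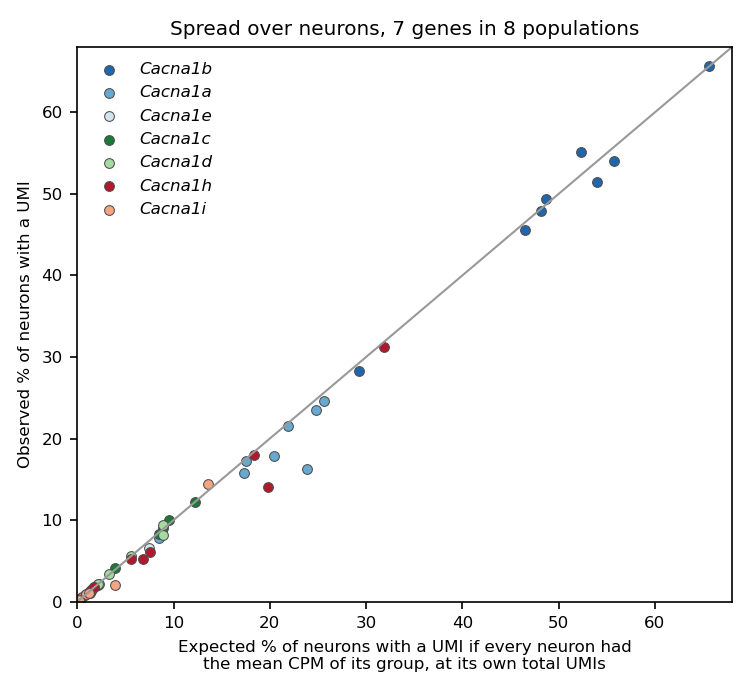
Each point is 1 gene in 1 of 8 populations of neurons, with the share of neurons with a UMI on the y axis and the share expected at 1 common level on the x axis. Points near the origin lie close to the line of equality for most ways the level could vary, and Cacna1h in the Nefh group, at 14.0% against 19.8%, is among the farthest below it.

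Single neurons often held several members. Of 3855 neurons, 1406 had a UMI of 1 member, 523 of 2 members, 162 of 3 and 43 of 4 or more, and the neurons with any member had a median of 4462 UMIs against 2059 in those with none. Of the 71 neurons with a UMI of Cacna1i, 33 also had Cacna1h, whereas of 90 with Cacna1e, 12 had Cacna1h and none had Cacna1i. Cacna1b and Cacna1a were seen together in 387 neurons. These counts rise with depth, and pairs that were not seen together cannot be called absent from the same cell.

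The genes most like each member were found by the Pearson correlation of log2(CPM + 10) over the 7 groups and the ungrouped neurons, 8 points that share the same libraries and differ in depth, among 9297 genes. They are a description of 8 values. Cacna1h was most like Plk2 (r = 0.98), Myh14 (0.96) and Alcam (0.95), and Plk2 stood at 112 CPM in the Cd34 and 3.36 in the Mrgprd group. Cacna1i was most like Ceacam10 (0.99), Adamts9 (0.98) and Rmdn1 (0.96). Cacna1e was most like the vasopressin receptor gene Avpr1a (0.99), the retinoic acid-forming enzyme gene Aldh1a3 (0.98) and Fxyd5 (0.98), with 35.1, 105 and 64.7 CPM in the Calca group. Cacna1b was most like the chloride transporter gene Clcn6 (0.97), Unc13b (0.96), whose protein primes synaptic vesicles, and Setd1a (0.94). Cacna1a was most like Lyrm9 (0.97), Prdx6 (0.96) and Vcl (0.93), Cacna1c like Rpl26 (0.96), Klf9 (0.96) and Snrnp27 (0.95), and Cacna1d like Nop56 (0.99), Extl2 (0.98) and Dtymk (0.96).

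Genes known to work with these channels were followed by the same rule. Of all genes with at least 200 UMIs, 41.1% were at least 2-fold higher or lower in 1 or more of the 7 groups, and of the sparse genes 80.7%. Every count of genes past 2-fold in some group that follows is to be read beside these shares, and the lists hold few genes. Gem, Rem2, Stac2, Kcnn2 and Atp2b3 had only 88, 36, 179, 164 and 160 UMIs outside the groups where they were higher, so they are in the range of at least 200 UMIs only through those groups. Of the sparse genes of the lists, Cacnb2, Klhl1, Rimbp2 and Slc8a2 are likewise there only through such groups, with 34, 26, 47 and 32 UMIs outside them. Nothing is read from the counts of lists that hold these genes. Among the auxiliary subunits that alpha1 proteins assemble with, 5 of the 6 genes with at least 200 UMIs reached 2-fold in some group, and the 1 sparse gene did so too. Cacna2d1, whose protein binds gabapentin, was 652 CPM in the Calca and 154 in the Nefh group (log2 against all others 1.29 and -1.37), and Cacna2d3 was 136 CPM in the Cd34 and 18.3 in the Calca group (log2 1.83 and -1.80).

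Of the 4 RGK genes, whose proteins inhibit calcium channels, 2 had at least 200 UMIs, and both reached 2-fold in some group. Rem2 stood at 45.9 CPM in the Nefh and 24.2 in the Cd34 group but at 0.471 in the Trpm8, 0.917 in the Mrgprd and 1.03 in the Calca group, and Gem was higher in the Calca (21.4 CPM) and Nppb (35.2 CPM) groups. Of 6 other partners, 2 of the 4 with at least 200 UMIs and the 1 sparse gene reached 2-fold in some group. Stac, an adaptor of L-type channels, was higher in the Calca (152 CPM), Nppb (190) and Mrgpra3 (183) groups and lower in the Cd34 (31.3) and Nefh (32.7) groups. Its relative Stac2 was 52.7 CPM in the Cd34 and 2.46 in the Calca group. Usp5, a ubiquitin protease known to act on Cav3 channels, stayed within 2-fold in all groups, from 80.4 to 146 CPM.

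The release machinery and calcium handling genes were followed as well. Of 7 presynaptic partners, 5 of the 6 with at least 200 UMIs and the 1 sparse gene reached 2-fold in some group, and the widest was the calcium sensor gene Syt2, at 279 CPM in the Nefh and 3.06 in the Mrgprd group. Of the calcium-activated potassium channels, 3 of the 3 with at least 200 UMIs did so: Kcnn1 was 118 CPM in the Mrgprd and 4.71 in the Trpm8 group, Kcnn2 was 57.0 CPM in the Trpm8 and at most 27.8 in any other group, and Kcnma1 was 79.5 CPM in the Mrgprd group. Of the calcium pumps and exchangers, 4 of the 4 with at least 200 UMIs and both sparse genes did so, among them Atp2b2, at 260 CPM in the Nefh and 234 in the Cd34 group against 10.4 in the Mrgprd and 17.0 in the Calca group, and Atp2b4, at 222 CPM in the Calca and 16.5 in the Nefh group.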

How the data were processed

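The authors deposited 1 table of UMI counts per gene and barcode, not normalized, from Drop-seq libraries. The submitters' processing notes name bcl2fastq 2.17, STAR 2.5.3a, Seurat 1.4.0.16 and the mm10 build, and no barcode has fewer than 1000 UMIs. The table held no column of another sample. Counts were summed over the cells of a population and divided by its total UMIs. Intervals were exact 95% Poisson, binomial (Clopper-Pearson) or conditional ratio intervals (Python 3.11.15, scipy 1.17.1, numpy 2.4.6). The ratio step was tested on simulated counts.

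No doublet was removed. 6 barcodes occur 2 times in the table (12 columns, 11 of them neurons) and were kept as they stand. Barcodes were called like another cell type where at least 3 of its markers had a UMI and their summed share was at least 5-fold that of the whole table, a rule set after seeing the data, as were the direct contrasts of 2 groups and the range from 50 to under 200 UMIs. The members and lists were chosen with earlier results of these data known. All 8 members were named, with Cacna1s, Cacna1f, list genes that reached 2-fold in a group, and the 3 genes most like each member. Zero counts were bounded by 3 counts. Positions are from GENCODE M21. 1 further selection of neurons, without UMIs of some markers of other cells, is not reported here.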

Additional observations from a re-analysis of the deposited data

How the results depend on the processing

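No paired analysis was possible because the barcodes carry no run or replicate number, and for the same reason no run could be left out. The share of neurons with a UMI of any member, 55.4%, was 59.2% among neurons with at least 900 genes, 22.9% at 1000 UMIs per neuron and 29.5% for at least 2 UMIs. The Cav3 share of the family stayed between 10.5% and 11.2% under the alternatives given here. The 6 higher pairs were 5 or 6 in number under these alternatives, and the 15 lower pairs 12 to 16, except 5 at 1000 UMIs, where fewer UMIs left 37 of the 46 ratios. Of the pairs past 2-fold that still had a ratio there, 10 of 16 stayed past it, and the lost ones were 2 pairs each of Cacna1d and Cacna1e and 1 each of Cacna1h and Cacna1i. The pair of Cacna1e in the Mrgprd group had no UMI left there. Its value is a bound from 3 counts, so that loss was set by the bound. Cacna1d changed sign in the Mrgprd group (log2 0.61 at 1000 UMIs) and in the Mrgpra3 group (0.92 at 1000 UMIs), from 6 neurons and 1 neuron with a UMI. Requiring 10 UMIs, observed or expected, for a pair, and leaving out neurons that met another cell class, were added after seeing the data and gave 5 and 6 higher and 12 and 15 lower pairs. The pairs lost to the first were Cacna1c and Cacna1h in the Nppb group, Cacna1d in the Mrgpra3 group and Cacna1i in the Trpm8 group. The alternatives for the 4 split ratios were added then too: all kept their direction, Cacna1h with Ntrk2 ran from 1.84 to 2.72 on the log2 scale, and Cacna1b with Trpv1 in the Trpm8 group fell to 0.73 without neurons that met several rules. Depth limits Cacna1g, Cacna1e, Cacna1i and Cacna1d most, and the Mrgpra3 and Nppb groups, with 74 and 69 UMIs of the family.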
